A study of Homo sapiens with 9 samples.

Results

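This account follows 9 genes of the autophagy machinery in cells labelled BxPC3, the name of a human pancreatic adenocarcinoma cell line. The cells had a short exposure to either of the compounds MS172 and PK9328. They are the cargo receptors SQSTM1 and NBR1, the ATG8 family genes MAP1LC3B, GABARAP, GABARAPL1 and GABARAPL2, and ULK1, WIPI1 and UVRAG, which act in the initiation of autophagosomes and in their formation and maturation. The 9 genes were chosen by name, with earlier results of these data known, from 56865 genes to which reads were summed. All 9 are among the 13914 genes with enough reads to be tested. Cells were given vehicle (DMSO), MS172 or PK9328, and 3 libraries of poly(A)-selected RNA were sequenced for each. All groups carry the genotype label p53Y220C/-, and PK9328 is known as a ligand of that mutant p53 protein. The protocol gives 5 µM for 6 h, but names MS78 where the sample titles name MS172, so the dose and time of MS172 come from a protocol with another compound name.

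The libraries held 24077353 to 28031886 estimated reads, and the 9 genes had between 522 and 25426 of them in any library. Whether the replicates came from separate cultures is not stated in the labels, and the p-values cover the spread between libraries alone, which may be technical. All PK9328 libraries had shorter fragments (250.5 to 264.0 bases) than the DMSO libraries (282.2 to 290.1 bases) and the MS172 libraries (275.1 to 293.8 bases). Of 12 markers of ductal and other epithelial cells, 5 were under 1 CPM (read counts scaled to library size) in all libraries. They include KRT7 (at most 0.103 CPM), EPCAM (at most 0.0745 CPM) and CDH1 (at most 0.0417 CPM). Other epithelial markers were well detected, with KRT8 at 651 to 864 CPM, KRT18 at 709.7 to 984 CPM, KRT19 at 289.7 to 367 CPM and CLDN4 at 97.4 to 218 CPM. Of 8 mesenchymal markers, VIM (8080 to 10383 CPM), COL1A2 (1799.5 to 2548 CPM) and ZEB1 (80.1 to 103 CPM) were the highest, while FN1, DCN and LUM were under 1 CPM in all libraries. With KRT7, EPCAM and CDH1 near 0 and VIM and COL1A2 high, the markers do not clearly bear out an epithelial line. The name BxPC3 is given as the label states it, and the identity of the cells was not tested. The summed level of the ductal markers was 1876 to 2030.1 CPM with DMSO, 2309 to 2441 CPM with MS172 and 1770 to 1864 CPM with PK9328, and its part in the results was not tested.

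In autophagy, cytoplasmic cargo is enclosed in a double membrane, the autophagosome, which fuses with lysosomes. ATG8 proteins are attached to lipids of the growing membrane, and receptors such as the products of SQSTM1 and NBR1 bind both ubiquitinated cargo and ATG8. The kinase ULK1 starts the process, WIPI1 binds the phosphoinositide PI3P on the early membrane, and UVRAG is a subunit of a complex of the lipid kinase VPS34. Several of these genes are known to be transcribed in response to stress, among them SQSTM1 as a target of the oxidative stress factor NRF2.

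The promoters of SQSTM1, MAP1LC3B and GABARAPL1 are shown because these genes had, in that order, a response mainly to MS172, similar values with both compounds, and opposite responses to the compounds. Each window runs from 250 bases before to 50 bases after a start site of RefSeq (GRCh38.p14, plus strand), 5′ to 3′. Capitals mark matches, on either strand, to the motifs named in the next paragraph.
SQSTM1, chr5:179820655-179820954: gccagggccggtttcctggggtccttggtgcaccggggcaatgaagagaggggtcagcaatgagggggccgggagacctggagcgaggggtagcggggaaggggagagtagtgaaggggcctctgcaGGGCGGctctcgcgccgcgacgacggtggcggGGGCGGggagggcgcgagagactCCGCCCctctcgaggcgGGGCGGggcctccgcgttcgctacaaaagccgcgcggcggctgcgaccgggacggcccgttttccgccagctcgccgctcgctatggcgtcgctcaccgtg
MAP1LC3B, chr16:87392086-87392385: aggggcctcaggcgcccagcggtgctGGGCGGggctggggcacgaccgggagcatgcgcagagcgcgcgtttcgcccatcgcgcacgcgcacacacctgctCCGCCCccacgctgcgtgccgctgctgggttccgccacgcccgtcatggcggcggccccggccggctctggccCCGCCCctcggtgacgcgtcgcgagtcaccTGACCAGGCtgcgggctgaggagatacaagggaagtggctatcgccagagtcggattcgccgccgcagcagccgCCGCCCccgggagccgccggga
GABARAPL1, chr12:10212627-10212926: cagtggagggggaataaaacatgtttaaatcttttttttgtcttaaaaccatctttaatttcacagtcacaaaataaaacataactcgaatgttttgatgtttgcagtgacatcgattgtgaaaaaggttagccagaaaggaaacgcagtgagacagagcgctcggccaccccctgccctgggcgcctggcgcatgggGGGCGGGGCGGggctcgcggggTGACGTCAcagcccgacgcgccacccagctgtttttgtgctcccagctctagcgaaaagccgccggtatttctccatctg

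Such windows were found for 8 of the 9 genes, UVRAG being the one without. The letters GGGCGG of the GC box occurred in 8 of 8, and in 44.95% of 35116 RefSeq promoter windows of the same length. In SQSTM1 there were 4 of them, the first at -123 and the last at -51 from the start site. MAP1LC3B held the antioxidant response core TGACNNNGC at -46, as TGACCAGGC, a pattern found in 13.3% of all windows. It occurred in 1 of the 8, and the SQSTM1 window had 0 matches to it. GABARAPL1 held TGACGTCA, the letters of an ATF and CREB site, at -30. That motif, present in 1.85% of all windows, was searched only after the sequence had been seen. Matches to CACGTG (7.26% of all windows), to its extension TCACGTGA (0.980%), to the CHOP-ATF4 pattern TGATGNAA (3.62%) and to the forkhead pattern GTAAACA (3.42%) were found in 0 of the 8. The start sites used for SQSTM1, MAP1LC3B and GABARAPL1 lie 146, 536 and 72 bases past that of the transcript holding most reads. All matches marked in the printed windows thus lie downstream of the start of that transcript, and positions count from the RefSeq start of the window. These matches are descriptions of letters, not of binding.

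SQSTM1 encodes p62, the receptor that carries ubiquitinated proteins into autophagosomes and that also binds KEAP1 (chr5:179806398-179838078, plus strand, GRCh38). With DMSO its normalised read count was 615, 585 and 609 CPM in the 3 libraries. With MS172 it was 1037.5, 1071 and 1052 CPM. With PK9328 it was 678, 678 and 667 CPM. The 3 groups were fully separated, with PK9328 just above DMSO and MS172 far above both. Against DMSO, SQSTM1 rose 1.75-fold with MS172 (95% interval 1.66 to 1.84; log2 fold change 0.81 ± 0.036, SE; edgeR adjusted p = 3.9e-17). With PK9328 the log2 fold change was 0.16 ± 0.036 (edgeR adjusted p = 0.0022). MS172 libraries exceeded PK9328 libraries by 0.64 ± 0.036 on the log2 scale (edgeR adjusted p = 5.8e-15). With fragment length as a covariate the rise with PK9328 was 0.21 with an edgeR adjusted p = 0.168, and the difference between the compounds 0.59 with an edgeR adjusted p = 4.8e-07. On the opposite strand, SQSTM1 overlaps MGAT4B, which ends at 179806952 and averaged 353 CPM. The 2 main SQSTM1 transcripts, with 94.2% of its reads, start beyond it, at 179820759 and 179822485. They overlap MRNIP, also on the opposite strand (from 179835133), which averaged 13.0 CPM. Whether reads were counted by strand is not given in the sources used here.

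NBR1, a receptor with a domain order like that of p62, had no call against DMSO with either compound (chr17:43170481-43211689, plus strand). It stood at 144, 150 and 140.1 CPM with DMSO, at 146, 138 and 138 CPM with MS172, and at 152, 147 and 152 CPM with PK9328. The library ranges of MS172 and of PK9328 each overlapped that of DMSO. The log2 fold change was -0.04 ± 0.038 with MS172 (edgeR adjusted p = 0.475) and 0.05 ± 0.038 with PK9328 (edgeR adjusted p = 0.372). Between the compounds NBR1 differed by -0.09 ± 0.038, MS172 being lower (edgeR adjusted p = 0.0452). That call was lost with RLE or DESeq2 size factors, with limma-voom, with the replicate number as a block (-0.09, edgeR adjusted p = 0.0654) and without any of MS172 libraries 2 and 3 and PK9328 libraries 1, 2 and 3, and with the covariate the difference was -0.01. The ratio of SQSTM1 to NBR1, taken on TPM (a level per transcript length), was 7.64 ± 0.623 with DMSO, 13.8 ± 0.498 with MS172 and 7.99 ± 0.173 with PK9328 (SD, n = 3 each).

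**Figure D1:**
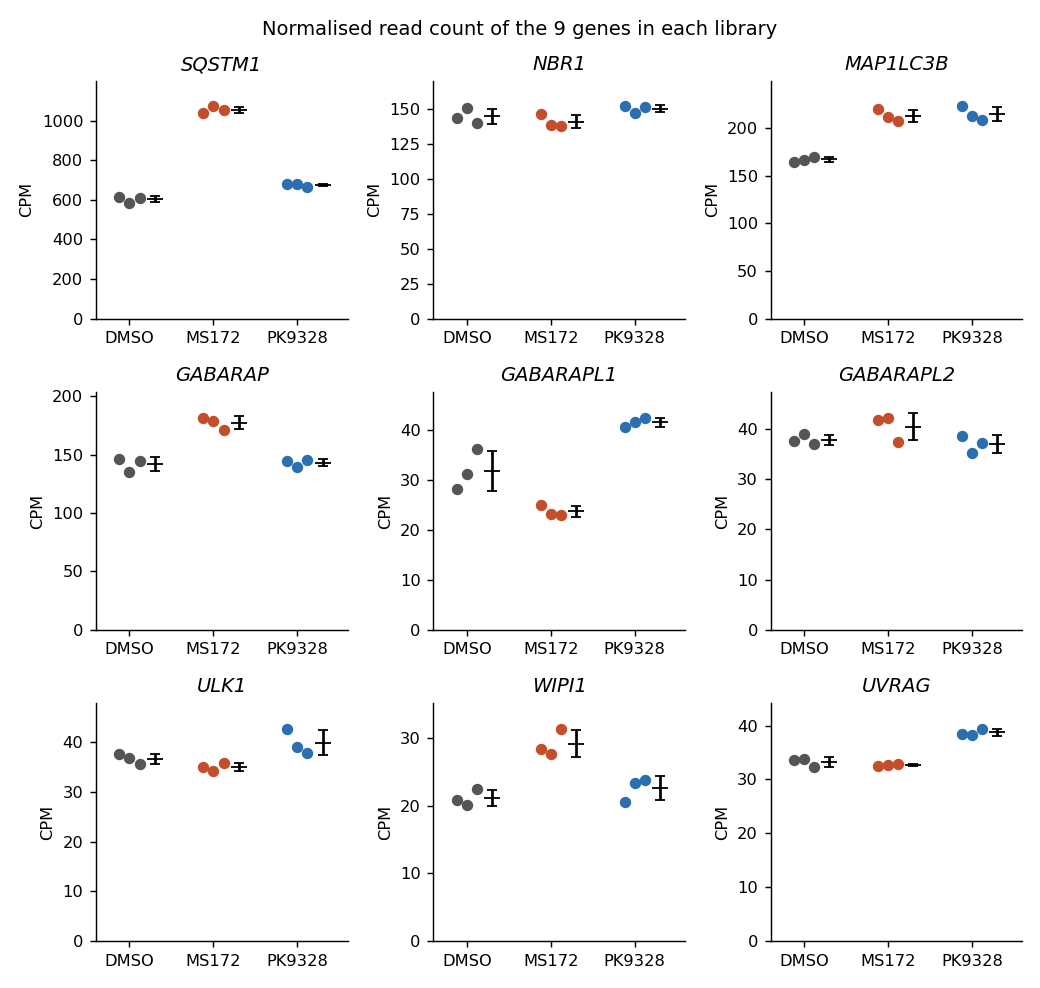
Normalised read count (CPM, TMM-scaled) of each of the 9 genes in each library, 3 libraries per group, with the mean and SD beside the points and each axis starting at 0. SQSTM1 is highest with MS172 (1037.5 to 1071 CPM), MAP1LC3B is raised with both compounds, and GABARAPL1 lies lowest with MS172 and highest with PK9328.

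MAP1LC3B encodes LC3B, the ATG8 protein most used as a marker of autophagosomes (chr16:87383995-87404779, plus strand). It was 164, 167 and 169.95 CPM with DMSO. It reached 219.6, 211 and 208 CPM with MS172, and 223, 213 and 209 CPM with PK9328. Every library of either compound lay above every DMSO library, and the ranges of the compounds overlapped. MAP1LC3B rose by 0.35 ± 0.037 with MS172 on the log2 scale (edgeR adjusted p = 1.2e-08) and by 0.36 ± 0.037 with PK9328 (edgeR adjusted p = 1.9e-08). These comparisons share the DMSO libraries. The direct difference, MS172 over PK9328, was -0.01, with a 95% interval of -0.09 to 0.06 (edgeR adjusted p = 0.807), which leaves room for a small difference either way. The rise with PK9328 was 0.32 with the fragment length covariate (edgeR adjusted p = 0.016). The overlapping gene FBXO31, on the opposite strand, averaged 66.6 CPM.

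GABARAPL1, an ATG8 gene of the GABARAP branch, was the member called against DMSO in opposite directions with the compounds (chr12:10212458-10223130, plus strand). With DMSO it was 28.1, 31.2 and 36.1 CPM. With MS172 it was 25.0, 23.2 and 23.0 CPM, and with PK9328 40.6, 41.5 and 42.4 CPM. The DMSO libraries were the most spread, yet no group overlapped another. GABARAPL1 fell with MS172 by 0.42 ± 0.071 on the log2 scale (edgeR adjusted p = 4.7e-05). It rose with PK9328 by 0.39 ± 0.066 (edgeR adjusted p = 0.00017). Directly, MS172 was lower than PK9328 by a log2 difference of -0.81 ± 0.069 (edgeR adjusted p = 4.6e-10), the widest gap between the compounds among the 9 genes. Fragment lengths in libraries 1 to 3 were 290.1, 286.0 and 282.2 bases with DMSO and 275.1, 293.8 and 292.7 bases with MS172. With PK9328 they were 262.2, 264.0 and 250.5 bases. In each group the library with the shortest fragments had the highest GABARAPL1. MS172 library 1, with shorter fragments than any DMSO library, lay below all of them. The part of fragment length in these values was not tested. With fragment length as a covariate the value for PK9328 was 0.15 (95% interval -0.11 to 0.41; edgeR adjusted p = 0.697), while the direct difference was -0.56 (edgeR adjusted p = 0.0031).

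GABARAP, which gives its branch of the family its name, rose with MS172 against both DMSO and PK9328 (chr17:7240014-7242770, minus strand). It was 146, 135 and 145 CPM with DMSO, 182, 179 and 171 CPM with MS172, and 144, 139.6 and 145 CPM with PK9328. All MS172 libraries were above all others, and the PK9328 libraries lay inside the DMSO range. The log2 fold change was 0.32 ± 0.039 with MS172 (edgeR adjusted p = 1.6e-07) and 0.01 with PK9328 (95% interval -0.07 to 0.09; edgeR adjusted p = 0.894). MS172 exceeded PK9328 by 0.31 ± 0.039 (edgeR adjusted p = 1.2e-07), and by 0.15 with counts rebuilt from length-scaled TPM, where the edgeR adjusted p = 0.0705.

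GABARAPL2, also known for a part in Golgi transport, had no call in any of the 3 comparisons (chr16:75566351-75577881, plus strand). It was 37.6, 39.0 and 37.0 CPM with DMSO, 41.8, 42.3 and 37.5 CPM with MS172, and 38.7, 35.2 and 37.3 CPM with PK9328, and all ranges overlapped. Its log2 fold change was 0.10 with MS172 (95% interval -0.02 to 0.21) and -0.03 with PK9328 (-0.15 to 0.08). The direct difference of 0.13 (0.01 to 0.24) had an edgeR adjusted p = 0.0581, and passed the threshold with RLE size factors (edgeR adjusted p = 0.0323), with length-scaled TPM (0.0495), without MS172 library 3 (0.0139) and without PK9328 library 1 (0.0422). Of the ATG8 genes outside the 9, MAP1LC3A averaged 34.5, 37.0 and 34.5 CPM with DMSO, MS172 and PK9328 and had no call. MAP1LC3B2 and MAP1LC3C, which share sequence with MAP1LC3B and MAP1LC3A, reached at most 0.245 and 0.104 CPM, and GABARAPL3 had 0 reads in all 9 libraries.

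Among the initiation and formation genes, WIPI1, a PI3P-binding protein of the early autophagosome, rose with MS172 (chr17:68420948-68457513, minus strand). It was 20.9, 20.2 and 22.4 CPM with DMSO, 28.4, 27.7 and 31.4 CPM with MS172, and 20.5, 23.4 and 23.8 CPM with PK9328. The MS172 libraries stood apart from all others, whereas PK9328 and DMSO overlapped. The log2 fold change was 0.46 ± 0.069 with MS172 (edgeR adjusted p = 5.1e-06), 0.10 ± 0.070 with PK9328 (edgeR adjusted p = 0.409) and 0.37 ± 0.069 for MS172 over PK9328 (edgeR adjusted p = 5.0e-05).

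UVRAG, the VPS34 complex subunit, rose with PK9328 (chr11:75815167-76143195, plus strand). It was 33.7, 33.8 and 32.2 CPM with DMSO, 32.5, 32.8 and 32.8 CPM with MS172, and 38.5, 38.3 and 39.4 CPM with PK9328. Here the PK9328 libraries were apart and MS172 lay within the DMSO range. UVRAG rose by 0.22 ± 0.051 with PK9328 (edgeR adjusted p = 0.0032), with a value of -0.02 (95% interval -0.13 to 0.08) for MS172, and was lower with MS172 than with PK9328 by a log2 difference of -0.24 ± 0.052 (edgeR adjusted p = 0.00027). With the fragment length covariate the value for PK9328 was again 0.22, but its edgeR adjusted p = 0.412, and with length-scaled TPM the edgeR adjusted p = 0.0603.

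ULK1, the initiating kinase, had small differences (chr12:131894651-131923167, plus strand). It was 37.7, 36.7 and 35.7 CPM with DMSO, 35.0, 34.3 and 35.9 CPM with MS172, and 42.7, 39.0 and 37.9 CPM with PK9328. The PK9328 libraries lay just above the DMSO libraries without a call (log2 fold change 0.12, 95% interval 0.01 to 0.23; edgeR adjusted p = 0.143), and MS172 overlapped DMSO (-0.07, -0.18 to 0.05). Between the compounds ULK1 was lower with MS172 by a log2 difference of -0.19 ± 0.055 (edgeR adjusted p = 0.0065). That call was lost without PK9328 library 1 (-0.13, edgeR adjusted p = 0.0719) and with the covariate (-0.27, edgeR adjusted p = 0.099).

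Counted together, 5 of the 9 genes changed with MS172 against DMSO, 4 higher and 1 lower, where 35.1% of all tested genes changed (17.9% higher and 17.2% lower). With PK9328 there were 4 changes, all higher, where 15.5% of all tested genes changed (7.98% higher and 7.48% lower). MS172 and PK9328 differed directly in 7 of the 9, with 3 higher and 4 lower for MS172, where 47.7% of all tested genes differed (23.3% higher and 24.4% lower). The median log2 fold change of the 9 genes was 0.10, 0.12 and -0.01 in these comparisons, against -0.02, 0.00 and -0.03 over all tested genes. The first 2 comparisons share the DMSO libraries, and no member was called in opposite directions with the compounds except GABARAPL1. The 9 genes were chosen with earlier results of these data known, so the counts do not come from a set picked blind to them. With the fragment length covariate 1 member, MAP1LC3B, was called with PK9328, where 178 of all 13914 genes were called. Between the compounds 4 members (SQSTM1, GABARAP, GABARAPL1 and WIPI1) were called with the covariate, where 2480 of all 13914 genes were.

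**Figure D2:**
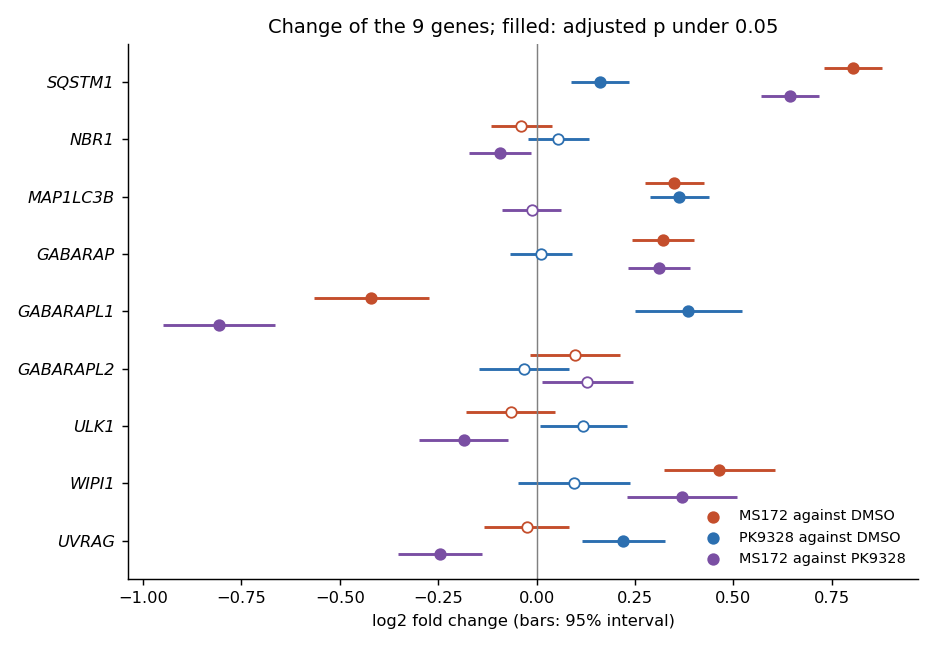
log2 fold change of each of the 9 genes in the 3 comparisons, with 95% intervals from the edgeR fit and filled points where the adjusted p is under 0.05. SQSTM1 (0.81 with MS172) and GABARAPL1 (-0.42 with MS172, 0.39 with PK9328) show the widest separation of the compounds.

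On the TPM scale, which adjusts for transcript length and so allows genes to be compared with each other, SQSTM1 and GABARAP were the most abundant of the 9. Without that adjustment GABARAP (142 CPM with DMSO) lay below MAP1LC3B (167 CPM). The GABARAP level in TPM rests on the estimated split of its reads, with 33.1% and 17.1% given to transcripts of 762 and 476 bases. With DMSO the levels were 324 ± 3.63 TPM for SQSTM1, 305 ± 12.2 TPM for GABARAP, 84.7 ± 2.81 TPM for MAP1LC3B and 62.7 ± 3.79 TPM for GABARAPL2 (SD, n = 3). Below them came NBR1 at 42.6 ± 3.38 TPM, GABARAPL1 at 22.7 ± 2.54 TPM, WIPI1 at 22.1 ± 0.576 TPM, UVRAG at 11.9 ± 0.565 TPM and ULK1 at 8.90 ± 0.81 TPM. GABARAPL1 and WIPI1 were the only neighbours in this order whose libraries overlapped. With PK9328 the order was the same, and with MS172 WIPI1 (26.5 ± 2.80 TPM) stood above GABARAPL1 (15.5 ± 0.578 TPM). TPM values are not TMM-scaled: over the tested genes the median log2 ratio of TPM was -0.18 for MS172 and 0.05 for PK9328 against DMSO, so changes with treatment are read from CPM.

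**Figure D3:**
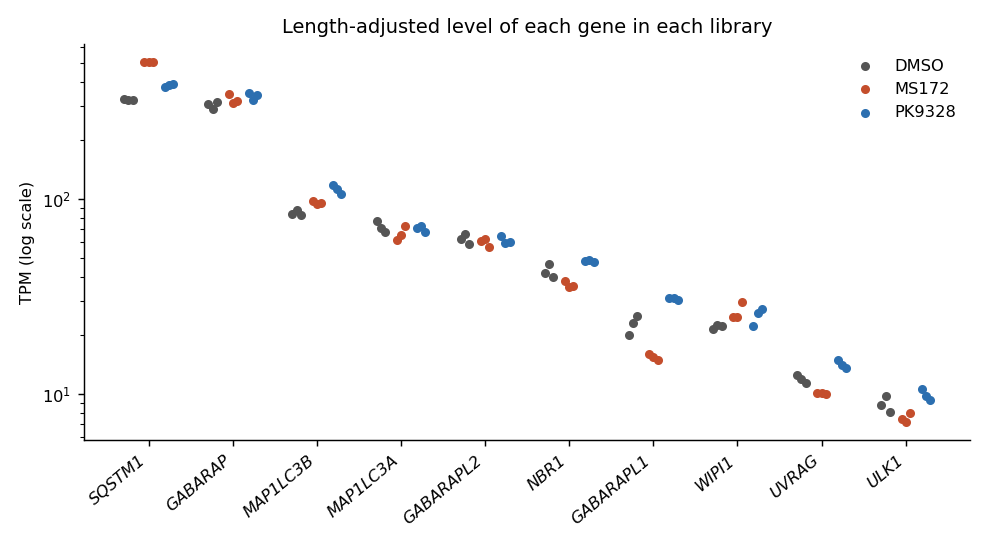
Length-adjusted level (TPM, log axis) of the 9 genes and of MAP1LC3A in each library, in order of their mean level. SQSTM1 and GABARAP lie above 290 TPM in all 9 libraries and ULK1 lies lowest, at 7.16 to 10.6 TPM.

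Among the transcripts of the 5 ATG8 genes with measurable levels, GABARAP made up 55.7% ± 1.72 of the summed TPM with DMSO, 57.8% ± 1.55 with MS172 and 55.2% ± 1.16 with PK9328. MAP1LC3B held 15.5% ± 0.68, 17.0% ± 0.275 and 18.3% ± 0.61 in the same order. GABARAPL1 was the smallest contributor, with 4.15% ± 0.479, 2.75% ± 0.082 and 5.02% ± 0.138. All these shares rest on the estimated split of GABARAP reads among transcripts of unlike length, and on fragment lengths that differ between groups. The ratio of GABARAPL1 to MAP1LC3B, in TPM, was 0.268 ± 0.0319 with DMSO, 0.162 ± 0.00548 with MS172 and 0.275 ± 0.00901 with PK9328. All 3 MS172 libraries (0.155 to 0.165) were below all others (0.239 to 0.302), whereas DMSO and PK9328 overlapped.

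Estimated reads were also divided among transcripts within each gene, and these shares are given as descriptions without a test. For MAP1LC3B, GABARAPL1, GABARAPL2 and ULK1 a single transcript held nearly all reads. In NBR1, the transcript NBR1-206, which starts at 43171214 rather than at the 43170481 of NBR1-201, held 15.7% ± 1.89 with DMSO, 10.2% ± 0.61 with MS172 and 23.5% ± 3.00 with PK9328, with no overlap between groups. In UVRAG, the shorter UVRAG-207, which starts inside the gene at 75979526, held 9.07% ± 7.69 with DMSO, 35.1% ± 7.92 with MS172 and 5.93% ± 4.39 with PK9328. UVRAG-208 was listed at 0 reads in all 3 MS172 libraries, against 60.6 to 111 reads with DMSO and 75.6 to 143 with PK9328. The summed count of UVRAG was 33.2 ± 0.865 CPM with DMSO and 32.7 ± 0.182 CPM with MS172. The split of reads between overlapping transcripts is an estimate of the authors' quantification.

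In GABARAP, the 1634-base transcript GABARAP-201 held 48.8% ± 3.26 with DMSO, 51.5% ± 4.79 with MS172 and 38.7% ± 4.31 with PK9328, and the shorter GABARAP-206 and GABARAP-205 (762 and 476 bases) held more with PK9328, at 37.5% ± 3.34 and 20.8% ± 1.24. In WIPI1, WIPI1-202 held 18.2% ± 8.28 with PK9328 and 3.67% ± 3.22 with DMSO. In SQSTM1, SQSTM1-201, which starts at 179822485, held 23.97% ± 3.84 with DMSO, 33.2% ± 4.91 with MS172 and 26.7% ± 5.85 with PK9328, and these ranges overlapped in part. The short fragments of the PK9328 libraries move with the PK9328 shares, and their part in them was not tested.

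**Figure D4:**
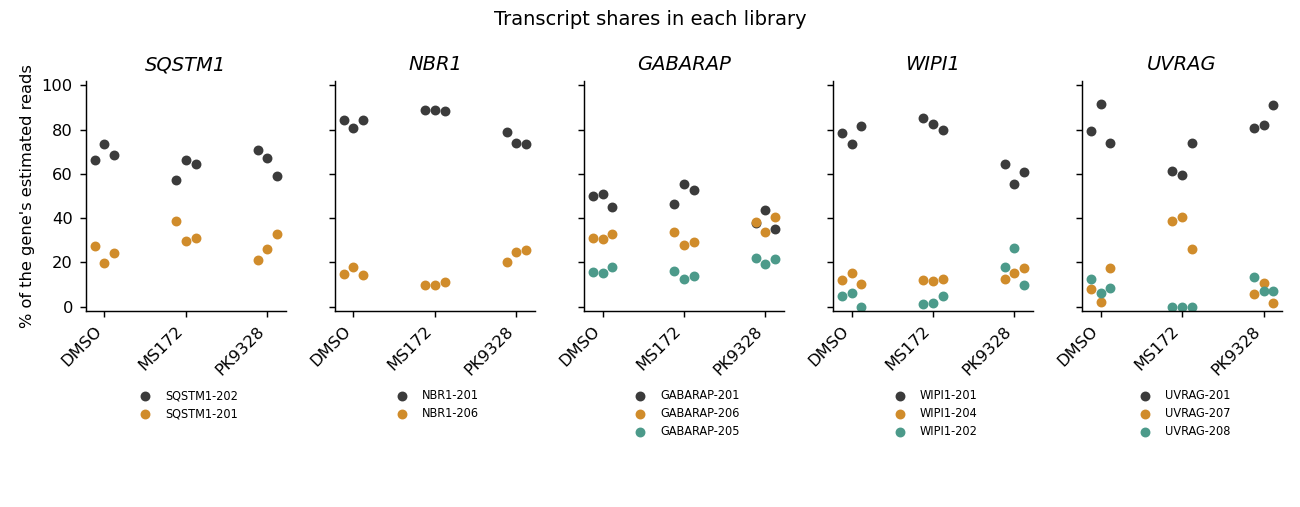
Share of each gene's estimated reads (%) held by its main transcripts in each library, for the 5 genes with more than 1 transcript of at least 5%. UVRAG-207 is highest in the MS172 libraries (26.1% to 40.7%) and NBR1-206 in the PK9328 libraries (20.03% to 25.5%).

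The rest of the pathway was read from lists of 93 other autophagy genes, of which 88 could be tested. These lists, too, were chosen with earlier results of these data known. With MS172, 30 rose and 9 fell (44.3%, against 35.1% of all tested genes), with a median log2 fold change of 0.05. With coding transcripts only, 20 of 87 rose and 9 fell with MS172, at a median of 0.0039, where 4056 of all 11932 genes changed. With length-scaled TPM 20 of 88 rose and 6 fell, at a median of 0.06, where 3350 of all 13963 genes changed. With PK9328, 14 rose and 3 fell (19.3%, against 15.5%), with a median of 0.03. Between the compounds 25 were higher and 25 lower with MS172 (56.8%, against 47.7%). For the counts per list that follow, the shares over all tested genes are again 35.1% with MS172 and 15.5% with PK9328.

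Of 18 further cargo receptors, 8 rose and 2 fell with MS172, and 0 rose and 1 fell with PK9328. TOLLIP, an adaptor that binds ubiquitin, rose with MS172 from 55.7 ± 1.28 to 80.3 ± 4.23 CPM (log2 fold change 0.53, edgeR adjusted p = 5.0e-10), with PK9328 at 55.2 ± 1.75 CPM. With length-scaled TPM that value for TOLLIP was 0.18 (edgeR adjusted p = 0.0966). SEC62, a receptor for the endoplasmic reticulum, rose with MS172 from 182 ± 2.11 to 217 ± 2.63 CPM (0.25, edgeR adjusted p = 1.5e-06). The fallers with MS172, named after their values were seen, were BNIP3, at 0.647 CPM with DMSO and 0.113 CPM with MS172, and NCOA4, the ferritin receptor (-0.14, edgeR adjusted p = 0.0091). RTN3, another receptor of the endoplasmic reticulum, fell with PK9328 by 0.12 on the log2 scale (edgeR adjusted p = 0.015), a call lost without DMSO library 1 and without PK9328 library 1 or 2. With MS172 RTN3 was among the genes that rose, from 295 ± 8.83 CPM with DMSO to 343 ± 5.21 CPM.

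In the ULK complex, 2 of 5 genes rose and 1 fell with MS172, and 1 rose with PK9328. ATG101, a scaffold subunit, was 39.5 ± 0.541 CPM with DMSO, 58.7 ± 1.246 CPM with MS172 and 49.7 ± 3.16 CPM with PK9328 (log2 fold changes 0.57 and 0.33, edgeR adjusted p = 5.0e-10 and 3.3e-05). ATG13, its partner, rose with MS172 by 0.19 (edgeR adjusted p = 0.00048), and ULK2, the kinase related to ULK1, was the faller (-0.16, edgeR adjusted p = 0.015; named after its value was seen). Of 8 genes of the VPS34 complex and its regulators, 2 rose with MS172 and 1 with PK9328. NRBF2, a VPS34 complex subunit, was 43.2 ± 1.07 CPM with DMSO, 56.1 ± 0.548 CPM with MS172 and 58.0 ± 2.82 CPM with PK9328 (0.37 and 0.42, edgeR adjusted p = 7.0e-07 and 2.3e-07). RUBCN, which restrains autophagosome maturation, rose with MS172 by 0.23 (edgeR adjusted p = 0.00072).

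Of 10 genes for ATG9, lipid transfer and PI3P effectors, 5 rose and 1 fell with MS172, and 1 rose and 1 fell with PK9328. TMEM41B, a lipid scramblase, rose with both, by 0.27 and 0.34 (edgeR adjusted p = 0.00018 and 1.8e-05), and VMP1, which acts with it, by 0.17 with MS172 (edgeR adjusted p = 0.0012). ATG9A, the membrane protein of ATG9 vesicles, was 146 ± 1.496 CPM with DMSO, 159 ± 3.65 CPM with MS172 and 132 ± 1.86 CPM with PK9328, and fell with PK9328 by 0.14 (edgeR adjusted p = 0.0054). Of 11 genes of ATG8 conjugation, 3 rose with MS172 and 1 with PK9328. The protease gene ATG4D rose by 0.23 with MS172 (edgeR adjusted p = 0.00042), ATG4B by 0.14 (edgeR adjusted p = 0.017, lost without DMSO library 1 or 2 or MS172 library 1 or 2), and the conjugation protein gene ATG12 by 0.25 with PK9328 (edgeR adjusted p = 0.0016). Of 13 genes for fusion with lysosomes, 3 rose and 2 fell with MS172, and 2 rose with PK9328. RAB7A, the small GTPase of late endosomes, rose with MS172 from 532 ± 16.9 to 639.8 ± 13.6 CPM (0.27, edgeR adjusted p = 1.3e-06). VPS18, a tethering subunit, rose by 0.39 with MS172 (edgeR adjusted p = 1.4e-06) and by 0.20 with PK9328 (edgeR adjusted p = 0.011, lost without DMSO library 3). The SNARE gene SNAP29 rose by 0.20 with PK9328 (edgeR adjusted p = 0.0052). The fallers with MS172 in these lists, named after their values were seen, were the lipid transfer gene ATG2B (-0.30, edgeR adjusted p = 0.017), the SNARE gene STX17 (-0.55, edgeR adjusted p = 0.00051) and the tether gene EPG5 (-0.25, edgeR adjusted p = 0.0062).

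Among 22 transcriptional and nutrient regulators, 7 rose and 3 fell with MS172, and 8 rose and 1 fell with PK9328. TRIB3, a pseudokinase gene that ATF4 activates, was 141 ± 5.95 CPM with DMSO, 202 ± 3.32 CPM with MS172 and 239 ± 7.73 CPM with PK9328 (0.52 and 0.76, edgeR adjusted p = 5.8e-12 and 1.7e-15). SESN2, a leucine sensor that restrains mTORC1, was 89.5 ± 0.78 CPM with DMSO, 85.3 ± 1.95 CPM with MS172 and 164.8 ± 0.709 CPM with PK9328, and rose with PK9328 by 0.88 (edgeR adjusted p = 4.1e-17). DDIT4, another brake on mTORC1, fell with MS172 from 876 ± 25.3 to 697 ± 15.6 CPM (-0.33, edgeR adjusted p = 6.1e-08) and rose with PK9328 to 1173 ± 32.9 CPM (0.42, edgeR adjusted p = 1.7e-09). DDIT3, which encodes the stress factor CHOP, was 55.6 ± 3.37 CPM with DMSO, 49.0 ± 4.66 CPM with MS172 and 138 ± 7.74 CPM with PK9328, and was named after its values were seen (-0.18 and 1.31, edgeR adjusted p = 0.039 and 1.7e-10). The other fallers of this list, also named after their values were seen, were PRKAA1 with MS172 (-0.17, edgeR adjusted p = 0.021) and TSC2 with PK9328 (-0.13, edgeR adjusted p = 0.041).

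Some of these calls rested on the handling of transcript length or of fragments. With the fragment length covariate 7 of the 88 genes were called with PK9328, where 178 of all 13914 genes were. The 7 were RB1CC1, TRIB3, NFE2L2, ATF4, SESN2, DDIT4 and DDIT3. With length-scaled TPM the calls with MS172 of ATG13 (0.07), RUBCN (0.03), TMEM41B (0.20), VMP1 (-0.02) and ATG4B (0.04) were lost, as were those with PK9328 of ATG12 (0.23), VPS18 (0.20) and SNAP29 (0.26). With coding transcripts only, ATG4D (0.13), ATG4B (0.11) and TMEM41B (0.40) lost their calls with MS172, ATG9A stood at -0.02 with MS172, and TMEM41B (0.47, edgeR adjusted p = 0.231) also lost its call with PK9328.

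**Figure D5:**
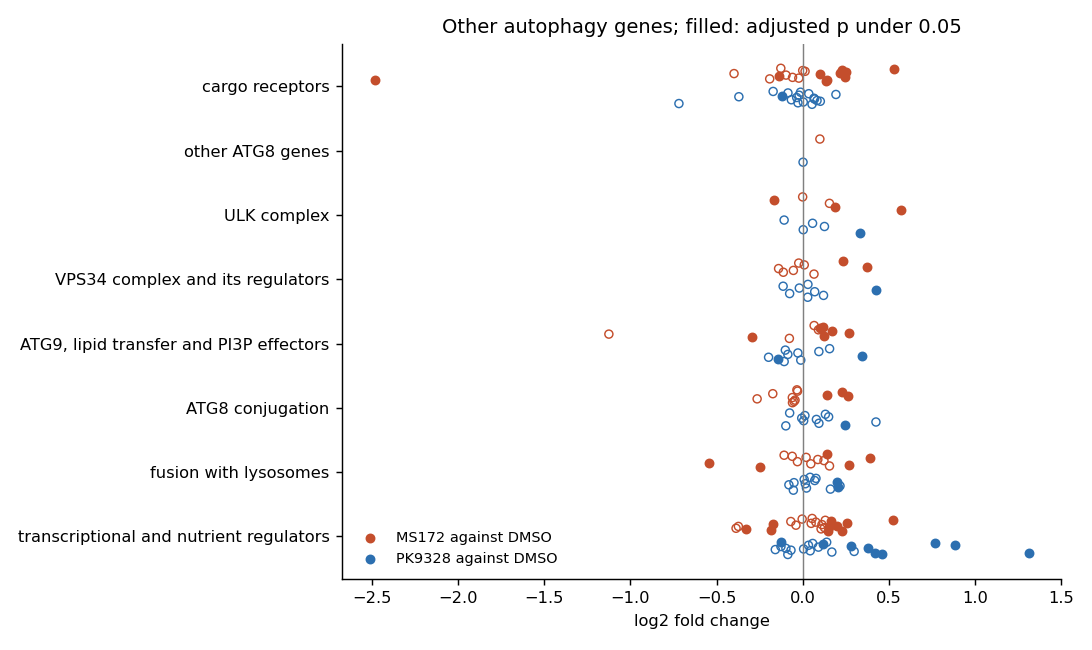
log2 fold change against DMSO of 88 other autophagy genes in 8 lists, MS172 above and PK9328 below on each line, filled where the edgeR adjusted p is under 0.05. The largest rises with PK9328 lie among the regulators (DDIT3 at 1.31, SESN2 at 0.88, TRIB3 at 0.76), and TOLLIP (0.53) and ATG101 (0.57) lead their lists with MS172.

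Genes with a pattern most like that of 3 members were named by Pearson r of log2 CPM over the 9 libraries, among 8791 coding genes of at least 10 CPM. The 9 points share their libraries and fall into the 3 treatments, so r reflects the spacing of the group levels together with the scatter of libraries. For SQSTM1 they were the chemokine gene CXCL8 (r = 0.997; 73.8, 293 and 97.9 CPM with DMSO, MS172 and PK9328), the cell cycle gene CKS2 (r = 0.996; 107, 238 and 127 CPM) and the heme oxygenase gene HMOX1 (r = 0.993; 24.1, 55.4 and 27.5 CPM). For MAP1LC3B they were the amino acid transporter gene SLC7A5 (r = 0.976; 371, 470.1 and 487 CPM), TMEM41B (r = 0.973; 40.9, 49.3 and 52.0 CPM) and CAMTA2 (r = 0.969; 52.1, 60.6 and 60.2 CPM). For ULK1 they were ODR4 (r = 0.943; 17.5, 15.8 and 19.7 CPM), AZI2 (r = 0.943; 15.2, 13.0 and 18.4 CPM) and EIF2A (r = 0.939; 72.4, 69.6 and 76.7 CPM).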

How the data were processed

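The deposited tables give, per the file headers, an estimated count of reads (which need not be whole), the TPM, the length and the effective length of 197653 transcripts in each library. The TPM values were taken as deposited, and the column names do not state how they were computed. FastQC 0.11.8 and the build hg38 are named in the submitters' processing notes. The program that quantified transcripts, and whether it used strand, is not given in the sources used here. Groups and replicate numbers were taken from the sample titles.

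Transcripts were matched to GENCODE 29 (GRCh38) by identifier without version, and 193348 matched; the rest held 0.356% to 0.382% of the reads and were left out. Estimated counts were summed per gene and rounded to whole numbers. Each comparison used edgeR 4.0.16 (R 4.3.3): TMM, filterByExpr by group, robust quasi-likelihood tests, all 9 libraries in 1 fit without a replicate term, 6 residual degrees of freedom, and Benjamini-Hochberg adjustment over 13914 genes. A gene is called (risen, fallen or different) where the adjusted p is under 0.05. Standard errors were computed from each F statistic and fold change. Confidence intervals are at 95%, and CPM is scaled by TMM. Fragment length is transcript length minus effective length plus 1 (median over long transcripts). The script was tested on simulated data.

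The text names all 9 genes, 4 further ATG8 genes, up to 2 genes with the smallest adjusted p per list and comparison with DMSO, and the 3 most similar genes for each of 3 members; exceptions are marked. The members, lists and tests were chosen with earlier results of these data known. Alternatives were RLE, DESeq2 1.42.0, limma-voom (limma 3.58.1), other filters, a replicate block, only the libraries compared, length-scaled TPM, a fragment length covariate, coding transcripts only, near-identical copies summed, and each library left out.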

Additional observations from a re-analysis of the deposited data

How the results depend on the processing

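Of the values given for single genes under the alternatives, 1127 kept direction and call, 62 lost the call, 4 gained it and 14 changed sign, and all 9 members kept both for MS172 against DMSO under all 17 of them. The fragment length covariate overlaps with the PK9328 group and widens its errors: with it 178 genes changed with PK9328 (111 higher and 67 lower, in place of 1110 and 1041), 1 member and 7 other autophagy genes, and between the compounds 2480 genes, 4 members and 22 other autophagy genes. With length-scaled TPM 1080 genes changed with PK9328. Leaving out 1 library gave 1384 to 2215 genes with PK9328, the lowest counts being 1384 without DMSO library 1 and 1400 without PK9328 library 2. Of the changes of sign, 10 were of values without a call. With PK9328 they were NBR1 (-0.027) and GABARAP (-0.054) with the covariate, GABARAP without DMSO library 2 or PK9328 library 3 (-0.0256 to 0.0342 over libraries left out), and GABARAPL2 without PK9328 library 2 (-0.0639 to 0.00624). Between the compounds they were MAP1LC3B with RLE (0.0036), DESeq2 (0.0037) or the covariate (0.029) and without MS172 library 3 or PK9328 library 1 (-0.0347 to 0.0135). The other 4 were of called values: between the compounds, RUBCN (0.20 to -0.076) and VMP1 (0.25 to -0.083) with length-scaled TPM, and with MS172, VMP1 with length-scaled TPM (0.17 to -0.024) and ATG9A with coding transcripts only (0.12 to -0.022). The cause was not tested.

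Replicate numbers are shared between groups, but the 9 same-numbered pairs had correlations of their deviations of -0.0569 to 0.0174, 0 of them over 0.1. No shared effect of the number was thus seen. With 3 libraries per group this cannot show that the numbers mark no shared culture or day. With the replicate block 4597, 1884 and 6405 genes changed (MS172, PK9328 and between the compounds), with 5, 4 and 6 members (NBR1 losing its call between the compounds, edgeR adjusted p = 0.0654) and 35, 16 and 51 other autophagy genes. Precision rests on 3 libraries per group, and members with few reads, such as WIPI1, have the wider errors.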
